A study of Homo sapiens with 10 samples.

Results

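The integrated stress response genes described here are the 10 genes ATF4, DDIT3, CEBPB, PPP1R15A, PPP1R15B, CHAC1, ASNS, TRIB3, SESN2 and DDIT4, of 63187 genes in the count table. They were taken from a fixed list of symbols of known members of the response, matched to the Ensembl identifiers of the table. The rule uses no measured value, though the list was drawn up with earlier results of these data known. All 10 were found, and all 10 passed the filter on low counts that left 17290 genes for testing. RNA-seq covered U2OS, a line of human osteosarcoma cells, with 2 libraries in each of 3 groups. The first group was heat-shocked and carried a knockdown of YTHDC1, a nuclear protein that binds messenger RNA bearing N6-methyladenosine. The second was heat-shocked with a control reagent, and the third was kept without heat shock with the same control reagent. An unheated knockdown group was not among the samples, so the knockdown is seen only in heated cells. The titles write sh before the target and the descriptions write si, so the kind of knockdown reagent is uncertain. The cells were grown at 37°C, and how hot and how long the shock was, and whether cells recovered before harvest, no label used here states.

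In the integrated stress response, kinases that sense different stresses phosphorylate the translation factor eIF2. General protein synthesis then falls while the messenger RNA of the transcription factor ATF4 is translated more, owing to short reading frames ahead of its coding sequence. ATF4 and its partners switch on genes for amino acid supply, for restraint of growth signalling and, where stress persists, for cell death, and one of the induced genes, PPP1R15A, directs a phosphatase back to eIF2. Much of the control lies in translation, and the values here are messenger RNA only.

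ATF4 binds, with a C/EBP partner, to the C/EBP-ATF response element (CARE), whose core was searched as TGATGNAA. Heat shock factors bind inverted units, searched here as GAANNTTC and TTCNNGAA, and the cyclic AMP response element (CRE) was searched as TGACGTCA. The endoplasmic reticulum stress element (ERSE) was searched too. Each motif was searched on both strands of RefSeq windows running from 250 bases before to 50 bases after a transcript start on GRCh38.p14. All 10 genes had at least 1 window. CARE cores were found in the windows of CHAC1, ASNS and PPP1R15B, against 4.46% of 27305 genes with a window. ASNS and DDIT4 held an inverted heat shock unit pair (16.2% of all genes), and in ASNS it overlapped the CARE core. PPP1R15A held a CRE (2.25% of all genes). None of the 10 held an ERSE (0.0916% of all genes), and the windows of ATF4, DDIT3, CEBPB, TRIB3 and SESN2 held none of these motifs. A match describes letters only, and binding was not measured.

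The 250 bases before the start of the 5 genes with a match are shown. Whether a match goes with the size of a response was not tested. The largest rises with heat shock were in CHAC1 (6.49-fold), ASNS (3.51-fold) and PPP1R15A (2.65-fold), which hold a match. DDIT3, with no match, rose 2.41-fold, more than DDIT4 at 1.88-fold, and PPP1R15B, with a match, was not called. Capitals mark the matches: the CARE core in CHAC1 (read on the opposite strand) and PPP1R15B, the CARE core running into the inverted heat shock pair in ASNS, the CRE in PPP1R15A and the inverted heat shock pair in DDIT4.
CHAC1 (chr15:40953221-40953470, plus strand): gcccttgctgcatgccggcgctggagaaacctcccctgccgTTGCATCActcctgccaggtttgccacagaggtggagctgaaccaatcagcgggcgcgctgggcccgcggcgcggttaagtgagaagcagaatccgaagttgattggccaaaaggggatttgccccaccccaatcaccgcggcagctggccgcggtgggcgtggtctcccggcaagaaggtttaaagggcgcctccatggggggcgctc
ASNS (chr7:97872409-97872658, minus strand): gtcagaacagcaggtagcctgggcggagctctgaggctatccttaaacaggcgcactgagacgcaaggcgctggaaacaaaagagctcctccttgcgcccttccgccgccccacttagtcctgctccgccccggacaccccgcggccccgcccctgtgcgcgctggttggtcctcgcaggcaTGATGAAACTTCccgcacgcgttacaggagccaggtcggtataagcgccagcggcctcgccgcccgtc
PPP1R15A (chr19:48872171-48872420, plus strand): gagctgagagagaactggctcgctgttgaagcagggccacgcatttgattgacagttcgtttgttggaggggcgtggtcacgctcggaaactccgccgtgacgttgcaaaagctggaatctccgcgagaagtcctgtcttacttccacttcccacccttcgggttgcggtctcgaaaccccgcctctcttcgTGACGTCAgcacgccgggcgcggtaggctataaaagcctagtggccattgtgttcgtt
PPP1R15B (chr1:204411818-204412067, minus strand): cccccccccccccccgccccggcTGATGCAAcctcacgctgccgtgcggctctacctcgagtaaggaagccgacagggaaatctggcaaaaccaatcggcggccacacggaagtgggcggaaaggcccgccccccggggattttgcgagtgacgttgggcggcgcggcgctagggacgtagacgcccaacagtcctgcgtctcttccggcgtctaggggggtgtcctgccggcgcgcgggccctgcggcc
DDIT4 (chr10:72273674-72273923, plus strand): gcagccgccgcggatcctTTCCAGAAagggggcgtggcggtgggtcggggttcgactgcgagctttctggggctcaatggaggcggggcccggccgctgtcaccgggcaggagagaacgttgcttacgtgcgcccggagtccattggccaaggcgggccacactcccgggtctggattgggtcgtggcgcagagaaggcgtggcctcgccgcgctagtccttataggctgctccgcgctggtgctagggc

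**Figure D1:**
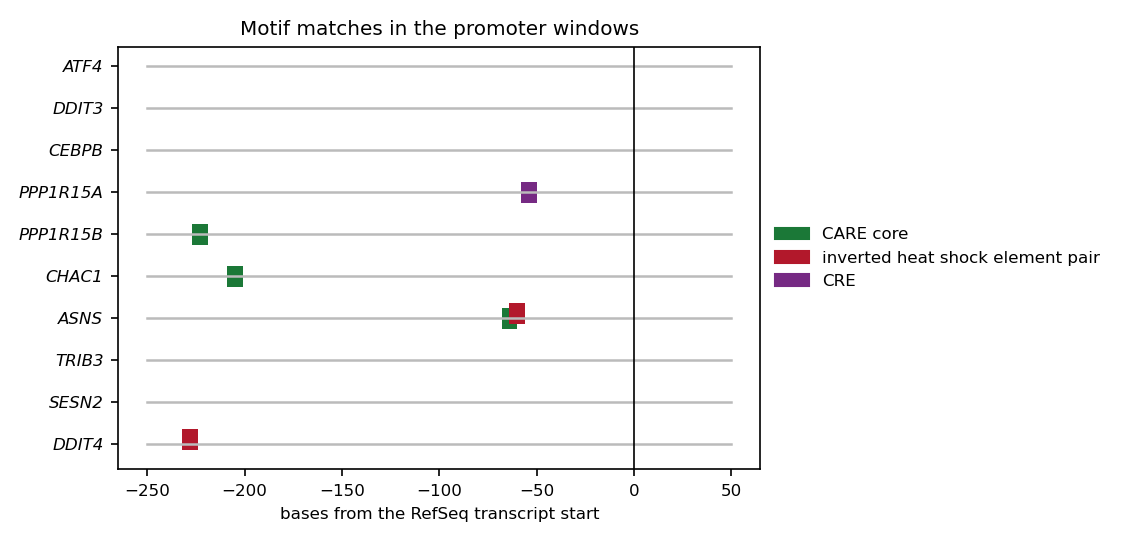
Position of motif matches (coloured blocks) in the promoter windows of the 10 genes (grey lines), in bases from the RefSeq transcript start at 0. The matches lie between 232 and 58 bases before the start, and 5 genes have none; where a gene has several windows they are drawn as 1 line around the start of the window that holds the match.

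The libraries held between 13252370 and 15500743 counts, and mitochondrially encoded genes took 5.09% to 6.12% of them. YTHDC1 was lower in both knockdown libraries, which stood at 121 and 118 CPM (counts scaled to library size with TMM factors), against 268 and 258 CPM in heat-shocked controls, or 45.4% of that level. In unheated controls it was at 213 and 225 CPM, so it was 1.2-fold higher with heat, and the knockdown stood at 54.6% of the unheated level. Of 7 mesenchymal markers, 6 averaged at least 5 CPM in every group, with COL1A2 the exception. They moved both ways in the knockdown. VIM was at 1161 and 1129 CPM there, against 1593 and 1589 CPM in heat-shocked controls, and CDH2 at 309 and 283 CPM, against 157 and 166 CPM. Blood cell markers summed to 4.71 and 6.68 CPM in the knockdown, 18.5 and 22.9 CPM in heat-shocked controls and at 15.5 and 16.3 CPM in unheated controls, nearly all from LCP1 and, in heated libraries, HBA2. CD3E and HBB were at 0 counts in every library. EPCAM was at 20.0 and 20.5 CPM in the knockdown, against 6.23 and 4.66 CPM in heat-shocked controls. Epithelial markers summed to 82.4 and 86.0 CPM in the knockdown, 68.1 and 76.4 CPM in heat-shocked controls and at 50.6 and 53.5 CPM in unheated controls, with KRT19 and ESRP1 below 1 CPM. These markers moved with the groups, and their part in the results below was not tested.

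Heat shock raised 8 of the 10 genes and lowered 0 in control cells (edgeR quasi-likelihood test with Benjamini-Hochberg adjustment over the 17290 genes, adjusted p under 0.05). Over all genes tested, 43.9% were called, 20.6% higher and 23.3% lower. With library size alone as the scaling, 2932 genes were higher and 5092 lower, in place of 3559 and 4033 with TMM. The 8 that rose were CHAC1, ASNS, PPP1R15A, DDIT3, DDIT4, SESN2, CEBPB and ATF4, and TRIB3 and PPP1R15B were not called. The median log2 fold change of the 10 genes was 0.68, beside -0.03 over all genes. For the 2 not called, the unadjusted p was 0.871 for TRIB3 and 0.0262 for PPP1R15B. In the heat-shocked knockdown, against heat-shocked controls, 2 of the 10 were higher and 5 lower, where 54.5% of all genes were called, 27.4% higher and 27.2% lower. The median was -0.05, beside -0.0042 over all genes. PPP1R15A and TRIB3 were higher, DDIT4, CHAC1, PPP1R15B, ASNS and SESN2 lower, and ATF4, DDIT3 and CEBPB were not called. The count of lower genes was 3 without knockdown replicate 1 and with the DESeq2 Wald test, where ASNS and SESN2 lost their calls. The heat-shocked knockdown was also set against unheated controls, sharing libraries with the comparisons above. There 8 of the 10 were higher and 2, DDIT4 and PPP1R15B, were lower, where 62.2% of all genes were called, 31.1% higher and 31.1% lower. The median was 0.41, beside -0.00428 over all genes. In bulk RNA, fewer cells expressing a gene and less RNA per cell cannot be told apart.

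**Figure D2:**
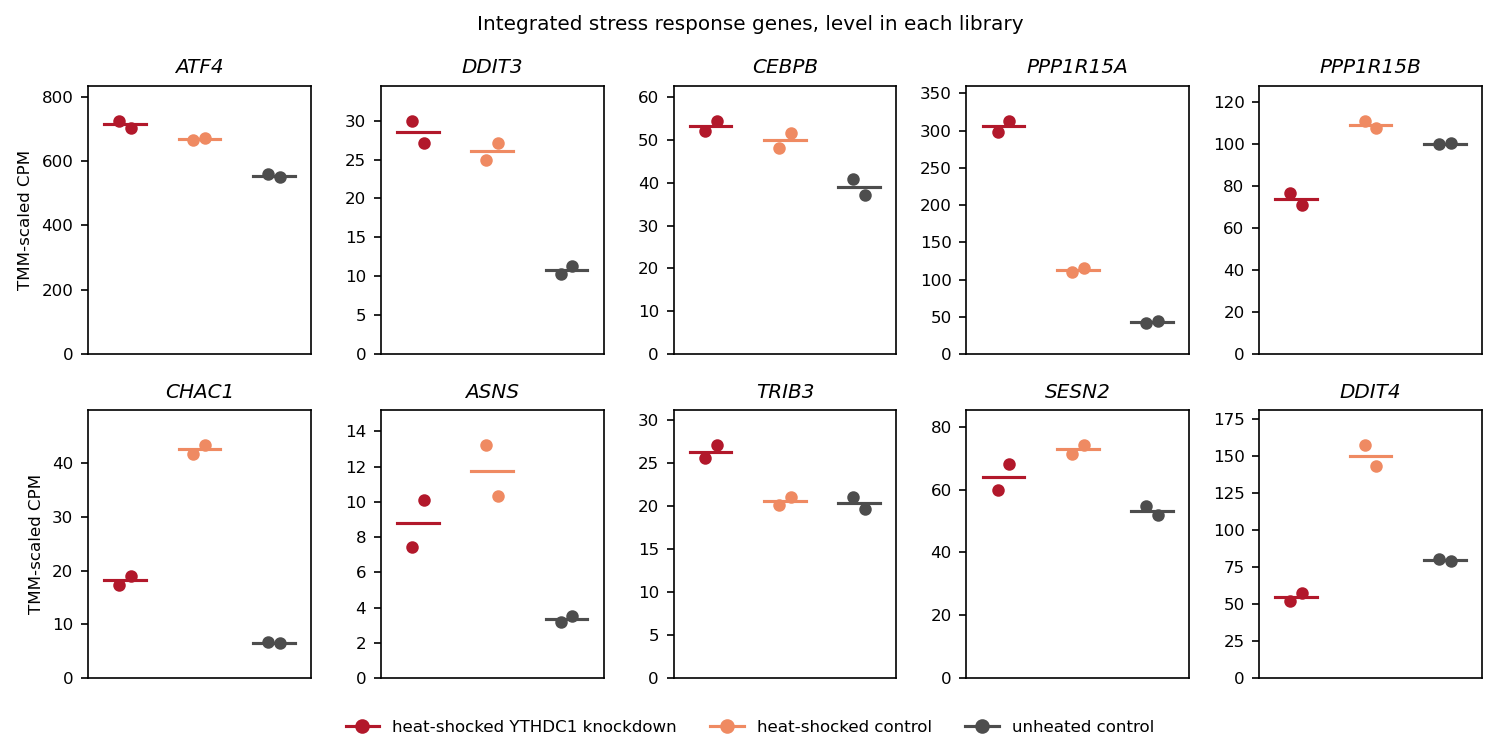
Level of each of the 10 genes in TMM-scaled CPM (vertical axes start at 0) in each of 2 libraries per group (points) with the group mean (line), for the heat-shocked knockdown, heat-shocked controls and unheated controls from left to right. CHAC1 and DDIT4 are highest in heat-shocked controls, and PPP1R15A is highest in the knockdown.

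ATF4 (ENSG00000128272, chromosome 22, 39520559 to 39522686), the transcription factor at the centre of the response, was at 724 and 702 CPM in the heat-shocked knockdown, 665 and 671 CPM in heat-shocked controls and at 560.0 and 549 CPM in unheated controls. The 4 heated libraries all lay above the unheated ones, and both knockdown libraries lay above the heat-shocked controls by a smaller step. Heat shock raised it 1.2-fold (log2 fold change 0.27 ± 0.04, SE from the fit, n = 2 per group, adjusted p = 1.54e-05). The knockdown was at a log2 fold change of 0.09 ± 0.04 (adjusted p = 0.063). That difference passed the threshold under scaling by library size (adjusted p = 0.0295), with limma voom (0.0335) and without knockdown replicate 2 (log2 fold change 0.12). In 11 of the 14 alternatives listed below it stayed uncalled, with a log2 fold change as low as 0.07. Of 4 ATF4 pseudogenes in the table, none had more than 28 counts in any library, against at least 8546 counts of ATF4.

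DDIT3 (ENSG00000175197, chromosome 12, 57516588 to 57520517) encodes CHOP, a transcription factor induced by ATF4 that promotes cell death in prolonged stress. It was at 30.0 and 27.1 CPM in the heat-shocked knockdown, 25.0 and 27.2 CPM in heat-shocked controls and at 10.3 and 11.4 CPM in unheated controls. The 2 heated groups overlapped, and both lay far above the unheated libraries. Heat shock raised DDIT3 2.41-fold (log2 fold change 1.27 ± 0.10, adjusted p = 5.19e-10), while the knockdown was at 0.13 ± 0.09 against heat-shocked controls (adjusted p = 0.24). DDIT3 overlaps by 65 bases the gene MARS1, a tRNA synthetase gene on the other strand, and no label used here states whether the counting used strand. MARS1 was at a log2 fold change of 0.35 with heat and -0.22 in the knockdown, both called. DDIT3 also overlaps by 2769 bases the protein-coding gene LOC128125814, to which no counts were matched. The microRNA gene MIR616, which overlaps it too, had 0 to 14 counts per library.

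CEBPB (ENSG00000172216, chromosome 20, 50190583 to 50192690), a C/EBP transcription factor that pairs with ATF4, was at 52.1 and 54.5 CPM in the heat-shocked knockdown, 48.2 and 51.7 CPM in heat-shocked controls and at 40.9 and 37.3 CPM in unheated controls. Every heated library was above every unheated one. The rise with heat was 1.28-fold (log2 fold change 0.35 ± 0.07, adjusted p = 2.27e-04), and the knockdown was at 0.09 ± 0.07 (adjusted p = 0.273). Its antisense gene CEBPB-AS1 had between 11 and 22 counts per library, against at least 580 of CEBPB.

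The regulatory subunits of the eIF2 phosphatase moved in opposite directions in the knockdown. PPP1R15A (ENSG00000087074, chromosome 19, 48872421 to 48876058) encodes GADD34, the stress-induced subunit. It was at 299 and 313 CPM in the heat-shocked knockdown, 110.8 and 116 CPM in heat-shocked controls and at 41.2 and 44.4 CPM in unheated controls. No group overlapped another, and the steps between them were of similar size on the log2 scale. Heat shock raised it 2.65-fold (log2 fold change 1.40 ± 0.06, adjusted p = 1.03e-15), and the knockdown raised it a further 2.7-fold (1.43 ± 0.05, adjusted p = 7.93e-17). Against unheated controls it was 7.14-fold higher in the knockdown (2.84 ± 0.05, adjusted p = 2.02e-22).

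PPP1R15B (ENSG00000158615, chromosome 1, 204395826 to 204411817) encodes CReP, the constitutive subunit. It was at 76.6 and 71.2 CPM in the heat-shocked knockdown, 111 and 108 CPM in heat-shocked controls and at 99.97 and 101 CPM in unheated controls. The knockdown libraries lay below all the others. The knockdown lowered it to 67.6% of heat-shocked controls (log2 fold change -0.56 ± 0.05, adjusted p = 5.27e-09). The heat-shocked knockdown was at 73.7% of unheated controls (-0.44 ± 0.05, adjusted p = 1.88e-07), a comparison in which heat and knockdown both differ. With heat alone it was at 0.12 ± 0.05 (adjusted p = 0.058). This passed the threshold when the knockdown libraries stayed out of the fit (adjusted p = 0.00496). It also passed without knockdown replicate 1 or replicate 2 (log2 fold change 0.12 for each). In 11 of the 14 alternatives listed below it stayed uncalled, with a log2 fold change as low as 0.05. Per length, in TPM (counts divided by gene length and scaled to the library total), the pair stood at 318 ± 5.97 TPM for PPP1R15A and 28.3 ± 1.87 TPM for PPP1R15B in the knockdown (SD, n = 2). In heat-shocked controls the levels were 117 ± 3.56 and 41.3 ± 0.995 TPM, and in unheated controls 45.6 ± 2.88 and 39.3 ± 0.599 TPM.

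CHAC1 (ENSG00000128965, chromosome 15, 40953471 to 40956512), an enzyme that breaks down glutathione and is a strongly induced target of ATF4, had the largest rise with heat of the 10 genes. It was at 17.4 and 18.9 CPM in the heat-shocked knockdown, 41.8 and 43.4 CPM in heat-shocked controls and at 6.69 and 6.42 CPM in unheated controls. The knockdown libraries lay between the other groups, with no overlap. Heat shock raised it 6.49-fold (log2 fold change 2.70 ± 0.10, adjusted p = 2.02e-16), a rise reached or exceeded by 187 of the 17290 genes, itself included. The knockdown lowered it to 42.7% of heat-shocked controls (-1.23 ± 0.09, adjusted p = 2.49e-11), which left it 2.77-fold above unheated controls (1.47 ± 0.12, adjusted p = 9.93e-11).

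ASNS (ENSG00000070669, chromosome 7, 97851677 to 97928441), asparagine synthetase, was the gene of the lowest level, with 50 to 172 counts per library. It was at 7.46 and 10.1 CPM in the heat-shocked knockdown, 13.2 and 10.3 CPM in heat-shocked controls and at 3.15 and 3.53 CPM in unheated controls. Both heated groups were well above the unheated one, whereas the nearest knockdown and heat-shocked control libraries almost met. Heat shock raised ASNS 3.51-fold (log2 fold change 1.81 ± 0.18, adjusted p = 1.78e-08). The knockdown lowered it (-0.42 ± 0.16, adjusted p = 0.027), a call that was lost without knockdown replicate 1 (adjusted p = 0.284), without heat-shocked control replicate 1 (0.317) and with the DESeq2 Wald test (0.147). The ASNS pseudogenes in the table had at most 17 counts in any library. The long noncoding RNA gene CZ1P-ASNS overlaps ASNS by 76325 bases, and no counts were matched to it. The transcript start of the ASNS window shown above lies inside the gene span given here.

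TRIB3 (ENSG00000101255, chromosome 20, 380760 to 397559), a pseudokinase that is induced by ATF4 and CHOP and restrains them, did not share the rise with heat. It was at 25.5 and 27.1 CPM in the heat-shocked knockdown, 20.2 and 21.0 CPM in heat-shocked controls and at 21.1 and 19.7 CPM in unheated controls. The control groups overlapped and the knockdown libraries were above both. With heat the log2 fold change was 0.02 ± 0.09 (adjusted p = 0.912), and its sign turned with library size alone (-0.05, adjusted p = 0.669). The knockdown raised TRIB3 1.28-fold (0.35 ± 0.09, adjusted p = 0.0022).

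SESN2 and DDIT4 both restrain the growth kinase mTORC1. SESN2 (ENSG00000130766, chromosome 1, 28259518 to 28282491), sestrin 2, a leucine sensor, was at 59.8 and 68.1 CPM in the heat-shocked knockdown, 71.5 and 74.3 CPM in heat-shocked controls and at 54.7 and 52.0 CPM in unheated controls. The knockdown libraries lay between the other groups, without overlap. Heat shock raised it 1.37-fold (log2 fold change 0.45 ± 0.07, adjusted p = 4.67e-06). The knockdown lowered it by a small amount (-0.19 ± 0.06, adjusted p = 0.0168), and this call was lost without knockdown replicate 1 (adjusted p = 0.22), without heat-shocked control replicate 2 (0.0847) and with the DESeq2 Wald test (0.0908).

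DDIT4 (ENSG00000168209, chromosome 10, 72273924 to 72276036), also called REDD1, had the largest fall of the 10 genes in the knockdown. It was at 51.8 and 57.4 CPM in the heat-shocked knockdown, 157 and 143 CPM in heat-shocked controls and at 80.1 and 79.2 CPM in unheated controls. The knockdown libraries were below both control groups. Heat shock raised DDIT4 1.88-fold (log2 fold change 0.91 ± 0.06, adjusted p = 2.89e-12). The knockdown lowered it to 36.4% of heat-shocked controls (-1.46 ± 0.06, adjusted p = 1.66e-15). The heat-shocked knockdown was at 68.6% of unheated controls (-0.54 ± 0.06, adjusted p = 7.31e-08), a comparison in which heat and knockdown both differ.

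**Figure D3:**
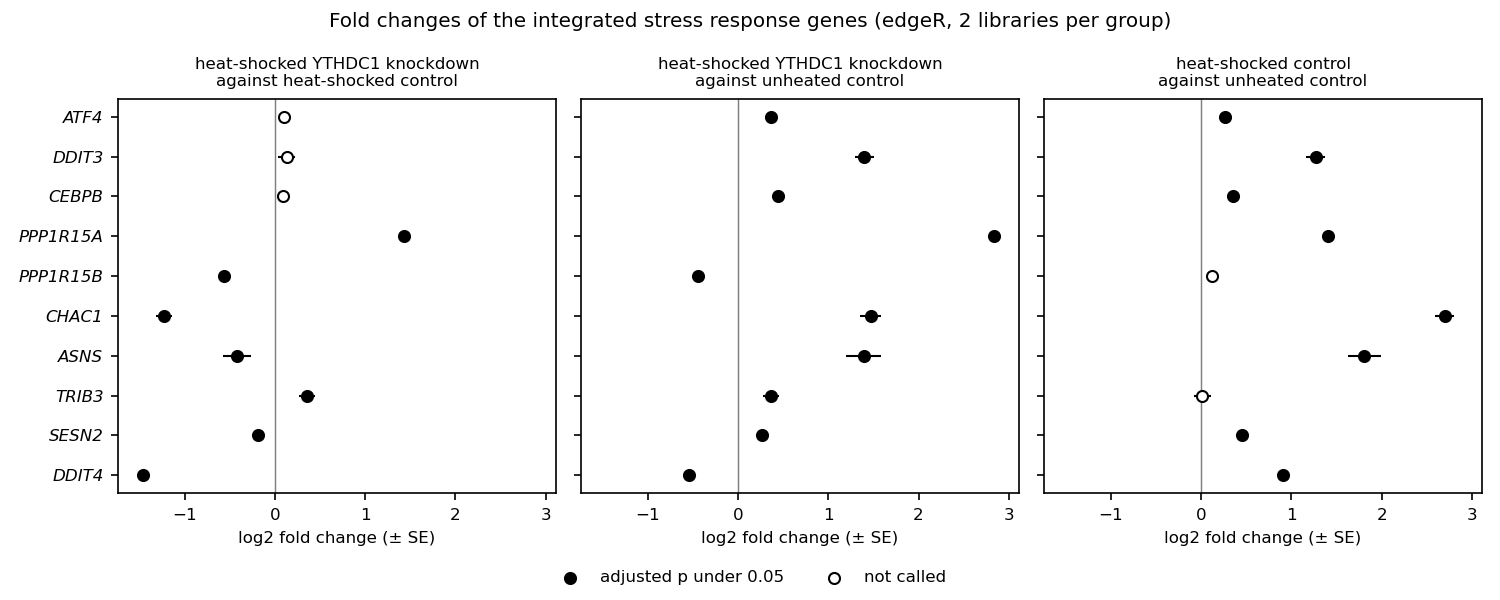
Log2 fold change (horizontal axis, ± SE) of the 10 genes in the 3 comparisons named above each panel, with filled points for an adjusted p under 0.05 and open points otherwise. In the right panel all points lie at or above 0.02; in the left panel they run from -1.46 for DDIT4 to 1.43 for PPP1R15A. The comparisons share libraries.

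Per length, ATF4 was the highest of the 10 genes in every group, at 975 ± 34.9 TPM in the heat-shocked knockdown, 902 ± 3.99 TPM in heat-shocked controls and 776 ± 2.11 TPM in unheated controls (SD, n = 2), and ASNS was the lowest, at 6.39 ± 1.27, 8.49 ± 1.496 and 2.50 ± 0.229 TPM in the same order. In the knockdown the order after ATF4 was PPP1R15A, CEBPB at 103 ± 1.86 TPM, DDIT4 at 92.1 ± 5.32 TPM, DDIT3 at 78.1 ± 6.58 TPM, SESN2 at 65.9 ± 5.13 TPM and CHAC1 at 31.6 ± 1.46 TPM. TRIB3 (28.5 ± 0.768 TPM) and PPP1R15B did not differ beyond their spread there. Heat-shocked controls had DDIT4 second at 250.1 ± 17.2 TPM, then PPP1R15A and CEBPB (96.0 ± 4.63 TPM). SESN2 (74.3 ± 1.85 TPM), CHAC1 (73.3 ± 1.83 TPM) and DDIT3 (70.4 ± 4.03 TPM) stood within their spread of each other. PPP1R15B and TRIB3 (22.1 ± 0.610 TPM) followed. Unheated controls had the order ATF4, DDIT4 (138 ± 0.456 TPM), CEBPB (77.7 ± 4.29 TPM), SESN2 (56.4 ± 1.34 TPM), PPP1R15A, PPP1R15B, DDIT3 (30.3 ± 2.50 TPM), TRIB3 (22.6 ± 0.852 TPM), CHAC1 (11.7 ± 0.198 TPM) and ASNS, each further from the next than their SDs.

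The wider pathway was followed in 10 further lists of 106 genes. Their counts stand against 20.6% of all tested genes higher and 23.3% lower with heat (43.9% called), and 27.4% higher and 27.2% lower in the knockdown against heat-shocked controls (54.5% called). The median log2 fold change over all genes was -0.03 with heat and -0.0042 in the knockdown. A share near these is not a result about a list. Upstream of ATF4, 4 of 12 genes for eIF2 kinases, eIF2 and its exchange factor eIF2B rose with heat, 1 fell and 7 were not called, a share called near that of all genes (median 0.09). EIF2AK2, the kinase PKR, rose to 278 CPM in heat-shocked controls, against 122 CPM in unheated controls (log2 fold change 1.19). EIF2AK3, the endoplasmic reticulum kinase PERK, rose by 0.61. EIF2AK4, the amino acid sensor GCN2, fell by 0.19, a call lost without heat-shocked control replicate 2 (adjusted p = 0.111), without unheated replicate 2 (0.0546) and with the DESeq2 Wald test (0.0844). In the knockdown 5 of the 12 rose and 6 fell (median -0.09), with EIF2B3 at 0.56 and EIF2B2 at 0.32, and EIF2AK2 at -0.59 and EIF2S1, the phosphorylated subunit eIF2 alpha, at -0.43.

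Of 9 phosphatase catalytic subunits and regulators of the kinases, 1 was called higher and 2 lower with heat, a share below but not far from the 43.9% of all genes (median 0.01). PPP1CB, a catalytic subunit of the phosphatase, fell by 0.37. DNAJC3, an inhibitor of PERK, was at 0.16 and DELE1, which relays mitochondrial stress, at -0.21. The call of DNAJC3 was lost with each control library left out (adjusted p from 0.0942 to 0.199). That of DELE1 was lost without heat-shocked control replicate 1 (0.201) and without either unheated replicate (0.0989 and 0.1), and both were lost with the DESeq2 Wald test (0.175 and 0.208). In the knockdown 4 rose and 4 fell, and the count of higher genes was 2 without knockdown replicate 1, without either heat-shocked control and with the DESeq2 Wald test. IMPACT, an inhibitor of GCN2, fell to 5.95 CPM in the knockdown, against 17.2 CPM in heat-shocked controls (log2 fold change -1.53). PPP1CC, another catalytic subunit, fell to 44.9% of heat-shocked controls (-1.16). DNAJC3 rose by 0.44 and the mitochondrial protease gene OMA1 by 0.39, and the call of OMA1 was lost without knockdown replicate 1 (adjusted p = 0.137), without either heat-shocked control (0.12 and 0.0846) and with the DESeq2 Wald test (0.183).

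Of 9 other transcription factors of the ATF4 family and its partners, 5 rose with heat and 2 fell (median 0.24). 1 of these falls was in a gene too low to be named (mean under 5 CPM). It was at 0.151 CPM in heat-shocked controls, against 1.08 CPM in unheated controls. CEBPG, a C/EBP partner of ATF4, rose to 112 CPM in heat-shocked controls, against 46.2 CPM in unheated controls (log2 fold change 1.28), and CEBPD rose by 1.25. ATF5, which like ATF4 is controlled by translation, fell by 0.80. In the knockdown 3 rose and 2 fell (median -0.02). The same low gene is counted among the rises, at 0.768 CPM in the knockdown, against 0.151 CPM in heat-shocked controls. ATF3, a stress-induced repressor and a target of ATF4, was at 185 CPM in the knockdown, 53.2 CPM in heat-shocked controls and 55.6 CPM in unheated controls (1.80 in the knockdown, adjusted p = 6.93e-18, and -0.07 with heat, adjusted p = 0.403). ATF5 rose by 0.45, while JDP2 fell by 0.92 and NFE2L2, the oxidative stress factor NRF2, by 0.54.

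In serine, glycine and one-carbon synthesis 6 of 7 genes rose with heat and 0 fell (median 0.42; DESeq2 also called 0 lower), where 20.6% of all genes were higher. These rises were led by PSPH at 0.79 and PSAT1 at 0.45. ALDH1L2 was at 0.42, and at 0.32 without unheated replicate 1, where its call was lost. CTH, of cysteine synthesis, rose by 0.86 and GPT2, an alanine transaminase, by 0.80, the 2 called of 6 genes of other amino acid synthesis (median 0.08). Of 10 amino acid transporters 6 rose and 1 fell (median 0.24). SLC3A2, the heavy chain shared by several transporters, rose to 369 CPM in heat-shocked controls, against 145 CPM in unheated controls (1.35), and SLC7A11, the cystine carrier, rose by 0.78. SLC43A1 was lower by a call (-0.37, adjusted p = 0.037) that was lost with each control library left out (adjusted p from 0.0503 to 0.214), with the DESeq2 Wald test (0.245) and with no filter (0.0532). Of 14 genes for cytosolic tRNA synthetases and the tRNA exporter XPOT, 11 rose and 1 fell (median 0.23), by small amounts, with YARS1 at 0.59 and XPOT at 0.39. TARS1, at 0.15, lost its call with library size alone (log2 fold change 0.08, adjusted p = 0.198). That call was also lost without heat-shocked control replicate 1 (log2 fold change 0.13) and without unheated replicate 1 (0.11). VARS1 fell by 0.15, a call lost without heat-shocked control replicate 1 (adjusted p = 0.179), without unheated replicate 1 (0.192) and with the DESeq2 Wald test (0.0789). When a call also needed a 1.5-fold change, the number higher with heat was 1 of 7 serine and one-carbon genes, 2 of 10 transporters and 1 of 14 tRNA synthetase genes, with 0 lower in each, while 2 of 6 in other amino acid synthesis passed. Over all genes 1650 were then higher and 1535 lower.

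In the knockdown these lists had calls in both directions, as did all genes, with 27.4% higher and 27.2% lower. Of the serine and one-carbon genes 3 rose and 3 fell (median -0.07), with ALDH1L2 at 0.36 and PHGDH at 0.24, and PSPH at -0.41 and MTHFD2 at -0.30. In other amino acid synthesis 3 of 6 rose (median 0.18), with CTH at 0.95 and PYCR1 at 0.40, and GPT2 fell by 0.39. Transporters had 4 of 10 higher, with SLC1A4 at 0.52 and SLC1A5 at 0.47, and 2 lower, SLC38A2 at -0.50 and SLC7A11 at -0.30. Among the tRNA synthetase genes 5 rose and 7 fell (median -0.10). AARS1 rose to 384 CPM in the knockdown, against 204 CPM in heat-shocked controls (0.91), and VARS1 rose by 0.58, while TARS1 fell to 249 CPM, against 476 CPM in heat-shocked controls (-0.94), and NARS1 by 0.31. With the 1.5-fold limit, the serine and one-carbon genes and the transporters had 0 called in either direction, and the tRNA synthetase genes 1 in each.

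Of 18 tested genes among other known targets of ATF4 or CHOP, 7 rose with heat and 7 fell (median 0.03), where 20.6% of all genes were higher and 23.3% lower. TSC22D3 rose by 1.30 and the stress-induced regulator NUPR1 by 0.99. BBC3, the pro-apoptotic gene PUMA, fell to 6.07 CPM in heat-shocked controls, against 25.5 CPM in unheated controls (-2.06), and JUND fell by 0.82. In the knockdown 10 rose and 1 fell (median 0.30), where 27.4% of all genes were higher and 27.2% lower, and 3 rose and 0 fell with the 1.5-fold limit. Among them were BBC3 at 1.02, NUPR1 at 0.99 and HERPUD1, of protein degradation at the endoplasmic reticulum, at -0.58. The XBP1 and ATF6 arms of the unfolded protein response had 7 of 14 higher and 2 lower with heat (median 0.15), and 0 of either with the 1.5-fold limit. XBP1 rose by 0.49 and the sensor ERN1 by 0.39, while EDEM1 fell by 0.44 and SDF2L1 by 0.25. The call of ERN1 was lost without unheated replicate 1 (adjusted p = 0.0662). That of SDF2L1 was lost without heat-shocked control replicate 1 (0.104), without unheated replicate 1 (0.0702) and with the DESeq2 Wald test (0.0511). In the knockdown 5 rose and 5 fell (median 0.01), with CRELD2 at 0.95 and SDF2L1 at 0.91, and DNAJB9 at -0.57 and EDEM1 at -0.49.

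Of 5 tested paralogues of the 10 genes, 2 rose with heat and 2 fell. SESN1, a p53-induced sestrin, fell to 8.39 CPM in heat-shocked controls, against 24.7 CPM in unheated controls (log2 fold change -1.55), where SESN2 rose. TRIB2 rose by 0.31 and CHAC2 by 0.38, and TRIB1 fell by 0.27. The call of CHAC2 was lost without heat-shocked control replicate 1 (adjusted p = 0.0633), without unheated replicate 1 (0.0889) and with the DESeq2 Wald test (0.0526). That of TRIB1 was lost with each control library left out (adjusted p from 0.0717 to 0.133) and with the DESeq2 Wald test (0.205). SESN3, a sestrin induced by FOXO factors, fell in the knockdown to 21.7 CPM, against 79.9 CPM in heat-shocked controls (-1.88, adjusted p = 4.99e-16). TRIB2 fell there by 0.20 and TRIB1 rose by 0.69.

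**Figure D4:**
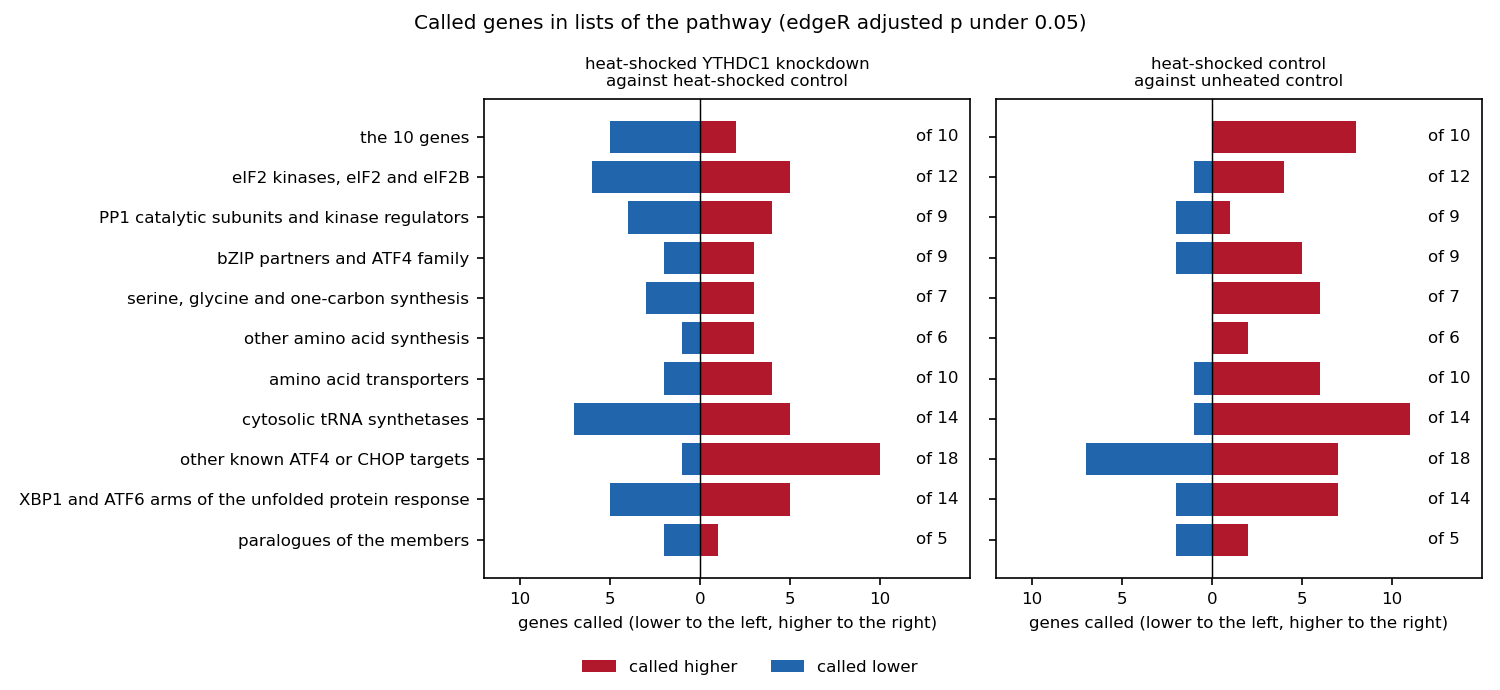
Number of genes called higher (red, to the right) and lower (blue, to the left) in the 10 genes and 10 lists of the pathway, with the number tested beside each bar, for the knockdown against heat-shocked controls (left panel) and heat-shocked against unheated controls (right panel). With heat the red bars are longest for tRNA synthetase genes (11 of 14) and for the 10 genes (8 of 10); in the knockdown 8 of the 11 rows have at least 2 genes called in each direction.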

How the data were processed

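The authors deposited 1 table of raw read counts per gene for 6 RNA-seq libraries, with gene lengths. Per the submitters' processing notes the tools were HISAT2 2.2.1, featureCounts 2.0.2, SAMtools 1.17, Trim Galore 0.6.7, FastQC 0.11.8, MACS2, R 4.4.0 and DESeq2 1.36.0, with the build GRCh38 and no role or order. No source used here states the annotation, the strand setting or how reads with several placements were treated, so counts of overlapping and near-identical genes are uncertain. The 4 methylated RNA immunoprecipitation samples were not analysed here, and no value measures N6-methyladenosine.

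Symbols were matched for 62666 of 63187 Ensembl identifiers, and gene positions are those of RefSeq on GRCh38.p14. All 6 libraries entered 1 fit in edgeR 4.0.16 (glmQLFit with robust estimation, glmQLFTest, TMM factors, filterByExpr with a minimum count of 10; 3 residual degrees of freedom; common biological coefficient of variation 3.69%) in R 4.3.3. Adjusted p-values are Benjamini-Hochberg over 17290 genes, with 0.05 as the threshold. The SE of a log2 fold change is its absolute value divided by the square root of the F statistic of the test. It rests on a spread estimated over all 6 libraries and shared between genes, not on 2 replicates alone. TPM was computed from the counts and the deposited gene lengths. The labels do not say whether the libraries of 1 group are separate cultures; p-values then measure only the spread of these samples, possibly technical. Replicates differed by a mean chi-square per gene of 3.26 in the knockdown, 2.51 in heat-shocked controls and 1.5 in unheated controls, so none was counted as a copy.

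The 10 genes and the lists were chosen with earlier results of these data known. All 10 genes are named, and of each list, in the knockdown and heat comparisons, up to 2 called genes per direction with the largest change and a mean of at least 5 CPM. The fit was tested on simulated data in which 50 genes changed at each size, far fewer than were called here. The counts were drawn with the spread that the fit itself had estimated, and the changed genes averaged at least 5 CPM. The simulation therefore cannot test whether that spread is right. At 1.25-fold, 62% were recovered for heat and 82% for the knockdown against heat-shocked controls, and at 2-fold 100% and 98%. Of the unchanged genes 0.0789% and 0.0967% were called. Alternatives were library size alone, DESeq2 1.42.0, limma 3.58.1 (voom), no filter, no robust estimation, 2 groups only, a replicate block, a call that also needs a 1.5-fold change, and each library left out.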

Additional observations from a re-analysis of the deposited data

How the results depend on the processing

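Each of the 10 genes in each of 3 comparisons was recomputed under 14 alternatives. Of 420 values 395 kept their direction and their side of the threshold, 19 lost a call, 6 gained one and 0 turned a called direction. When a call also needed a 1.5-fold change, 5 genes were called with heat, all higher, 3 in the knockdown against heat-shocked controls (1 higher, 2 lower), and 4 against unheated controls (4 higher, 0 lower). Over all genes the DESeq2 Wald test called 2647 higher and 2514 lower with heat, against 3559 and 4033 by edgeR. The 1.5-fold limit left 1650 and 1535 with heat, 2214 and 2308 in the knockdown against heat-shocked controls (4729 and 4696 without it), and 2932 and 2993 against unheated controls (5372 and 5384). With the DESeq2 Wald test 3 rather than 5 were lower in the knockdown. With 1 library left out, that count ran from 3, without knockdown replicate 1, to 5. Counts for the other lists stayed within 1.5 times in 478 recomputations and moved further in 82. For the genes named from those lists and YTHDC1, 1431 values kept their direction and call, 105 lost a call and 4 gained one. With the replicate number as a block the counts were 8 higher with heat and 2 higher and 5 lower in the knockdown, and among the genes named only the call of DNAJC3 with heat was lost (adjusted p = 0.0502). Deviations of same-numbered libraries correlated between -0.0311 and 0.0276, and nothing in the labels ties them. At 50 counts in its lowest library, ASNS was the least precise of the 10 genes.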
